A study of Trichoderma reesei with 15 samples.

Results

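The comparison described here set 4 RNA sequencing libraries of Trichoderma reesei that carried a deletion named pph5-2 against 2 libraries of the parent strain QM6aΔmus53, 6 of the 15 libraries of the series. The members were chosen by title: the libraries titled pph5-2_DD3 (4, called Δpph5-2 here) and those titled mus53_DD3 (2, called the parent). T. reesei is a filamentous fungus grown for its secreted cellulases. Mycelium of all groups grew for 96 h at 28 °C on cellulose, in a minimal medium kept in constant darkness. Both groups lack mus53, which in Neurospora crassa encodes the DNA ligase of non-homologous end joining and whose loss favours targeted gene replacement, so Δpph5-2 differs from the parent by its label in pph5-2 alone. The other libraries, with the tag DD1, hold the deletions pp2A (4) and pph5 (3) and 2 more of the parent. What DD1 and DD3 mean, how many transformants the Δpph5-2 libraries came from, and whether libraries are separate cultures remain unstated in the sources used here. The p-values therefore cover the spread among libraries alone, in most fits that of all 15, and that spread may be technical. Libraries that share a transformant or culture would count as fewer independent units. Source name and cell line of the Δpph5-2 libraries read pph5, against their title and type.

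PP5 is a serine/threonine protein phosphatase, an enzyme that removes phosphate from proteins, with tetratricopeptide repeats and the catalytic domain in a single chain. In animals and yeast it binds the chaperone Hsp90 through those repeats and is held inactive by them until a partner binds. The labels name the gene pph5-2 and give no sequence or identifier, so its kinship with PP5 rests on that name. The deposited counts name genes by systematic identifiers, a letter, a running number and W or C, which no table used here pairs with gene names, so no cellulase or regulator can be described and no sequence is printed. The 3 rows with gene names, mat1-1-1, mat1-1-2 and mat1-1-3, genes of the MAT1-1 mating type that QM6a does not carry, had 0 counts in all 15 libraries.

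Library totals ran from 8990198 to 13572121 counts in Δpph5-2 and were 9733138 and 10499078 in the parent, and 8912 genes had enough counts to be tested. Levels are given in TMM-scaled CPM, counts relative to the library total after scaling by the trimmed mean of M values. Adjusted p-values come from edgeR's quasi-likelihood test with Benjamini-Hochberg adjustment over all genes tested, fitted over the 15 libraries.

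The libraries of each group differed widely among themselves. The pair of parent libraries lay more than 2-fold apart in 933 genes (10.5%), of which 782 were higher in parent replicate 1 and 151 in replicate 2. Among the Δpph5-2 libraries, replicates 1 and 2 were over 2-fold apart in 336 genes (3.77%), and the other 5 pairs in 771 to 1070 genes. Δpph5-2 replicate 3 and parent replicate 2 were 679 genes apart, and Δpph5-2 replicate 4 and parent replicate 1 were 732 apart, fewer in both cases than the parents from each other. Replicates 1 and 2 of Δpph5-2 were thus the most alike, while replicates 3 and 4 each had a parent library as nearest.

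**Figure D1:**
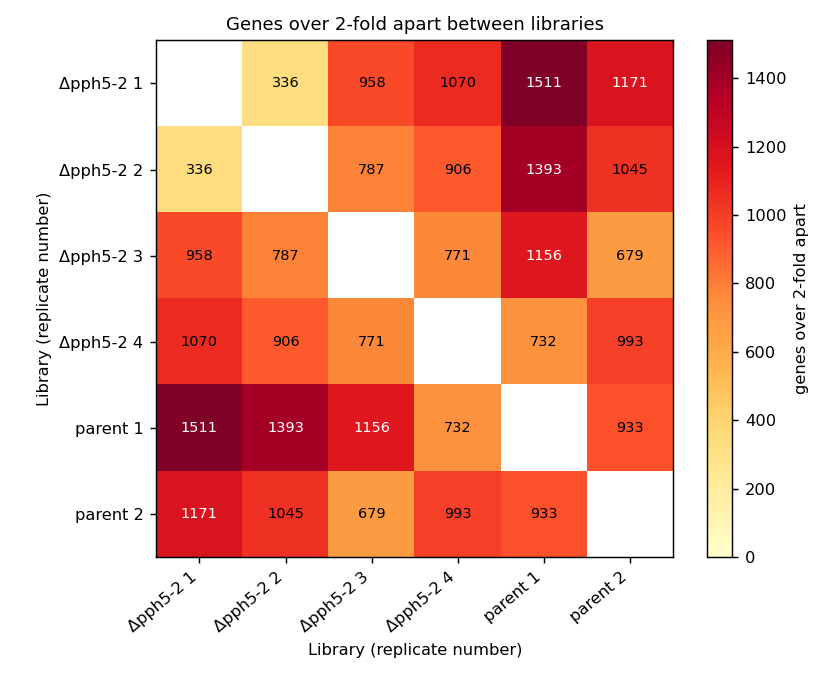
Number of genes, of 8912, over 2-fold apart between each pair of the 6 libraries (log2 of TMM-scaled CPM with a prior count of 2); rows and columns are libraries with their replicate number. The palest pair is Δpph5-2 replicates 1 and 2 with 336 genes, and the darkest is Δpph5-2 replicate 1 with parent replicate 1 (1511 genes).

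A common direction ran through these differences. Across genes, the difference between the DD3 parents (replicate 1 minus 2) correlated with that between the DD1 parents, which are other libraries of the same strain (r = 0.744, Spearman's rho 0.633, 8912 genes, which are not independent and share library and depth). On a scale built from the 2118 genes over 2-fold apart between the DD1 parents, with DD1 parent replicate 2 at 0 and replicate 1 at 1, the Δpph5-2 libraries stood at 0.157, 0.145, 0.099 and 0.501 (replicates 1 to 4). The DD3 parents stood at 0.643 (replicate 1) and 0.156 (replicate 2). The groups overlapped, with 3 of the 4 Δpph5-2 libraries at or near the level of parent replicate 2.

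The transcript missing from the deletion strain was TrE0027W, with a length of 1455 bases. It had 0 counts in each of the 4 Δpph5-2 libraries, against 166 and 204 counts in the parent. In every other library it was present, with 291 to 397 counts in Δpp2A, 84 to 111 in Δpph5, and 167 and 228 in the DD1 parent. It was 0 ± 0 CPM in Δpph5-2 (SD, n = 4) and 19.0 ± 1.02 CPM in the parent (SD, n = 2). Against a floor of 3 counts over the 4 libraries (0.0683 CPM of the library totals) the level was at least 267-fold lower in Δpph5-2, a bound that covers counting error only. Its adjusted p was 8.30e-07 by edgeR, and 0.0873 with only the 6 libraries of the comparison in the fit, where it was not called. An exact two-sided permutation test over the 6 libraries gave p = 0.133, the smallest that 4 libraries against 2 allow.

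TrE0027W is a candidate for the deleted gene, found by its counts. A parent mean of at least 5 CPM, under 5% of it left and no overlap held for 2 genes. The other was TrD1007C, with 4, 1, 0 and 3 counts in Δpph5-2, against 109 and 10 in the parent and 225 and 0 in the DD1 parent. It varied among libraries of 1 strain and was not called (adjusted p = 0.415 by edgeR). The candidate for the gene deleted in Δpph5, TrE1020W, was at 123 ± 5.97 CPM in Δpph5-2 (SD, n = 4) and 130 ± 9.78 CPM in the parent (SD, n = 2), and had 0 counts in the 3 Δpph5 libraries. The candidate of Δpp2A, TrG1101W, was at 31.3 ± 3.46 CPM in Δpph5-2 (SD, n = 4) and 31.6 ± 2.05 CPM in the parent (SD, n = 2). The Δpph5-2 libraries therefore held the transcripts missing from both other deletions, also where their source name reads pph5.

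The identifier next to it divided the Δpph5-2 libraries. TrE0028C (1275 bases), named here after its values were seen, had 0 counts in Δpph5-2 replicates 1 and 2, 56 counts in replicate 3 and 43 in replicate 4, against 98 and 105 counts in the parent. Counts of 0 allow up to 0.326 CPM in replicate 1 and 0.221 CPM in replicate 2, where replicates 3 and 4 were at 6.39 and 3.71 CPM and the parents at 10.8 and 10.1 CPM. It had between 15 and 312 counts in each of the 9 DD1 libraries. Over the whole group edgeR did not call the difference (adjusted p = 0.586), with a log2 fold change of -2.08 and a 95% interval of -4.35 to 0.18. Of the genes with at least 5 CPM in both parents, 1 had 0 counts in all 4 Δpph5-2 libraries, 0 had them in exactly 3, and 2 in exactly 2. Those 2 were TrE0028C and TrG0015C, both at 0 in replicates 1 and 2. TrG0015C, also named after its values were seen, had 127 and 2686 counts in replicates 3 and 4, against 3450 and 5665 in the parent, a far wider spread.

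On the side of lower running numbers, replicates 1 and 2 were also high. Of the 10 identifiers before TrE0027W, 9 were tested. In Δpph5-2 replicates 1 and 2, 8 of these 9 were over 2-fold above the parent mean, with a median log2 ratio of 1.70 and 1.57. In Δpph5-2 replicates 3 and 4 it was 1 of 9 each, with medians of 0.06 and 0.08. Such an excess was met by 6.08% and 5.24% of all genes in replicates 1 and 2, and by 1.41% and 2.69% in replicates 3 and 4. In the 9 DD1 libraries 0 to 2 of the 9 were that high. The nearest of these identifiers to TrE0027W by number, TrE0025W and TrE0026C, give the values. TrE0025W had 852, 1121, 250 and 339 counts in Δpph5-2 (replicates 1 to 4), against 250 and 263 in the parent. TrE0026C had 19, 24, 2 and 21 counts in Δpph5-2, against 6 and 5 in the parent. For TrE0025W, Δpph5-2 replicates 1 and 2 stood above the parents and replicates 3 and 4 near them, while TrE0026C was also high in replicate 4.

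No other stretch of this length with as many high members was found in the Δpph5-2 libraries. Length and number were set from the stretch already seen, so the scan was bound to return it. Stretches of other lengths or with fewer high members were not searched. Among 8856 runs of 9 tested identifiers that follow each other within a letter, 1 run reached 8 members over 2-fold above the parent mean in replicate 1 and 1 in replicate 2, in both cases this run, which starts at TrE0017C. In Δpph5-2 replicates 3 and 4 it was 0 runs. In the group comparison 6 of the 9 genes were higher at an unadjusted p under 0.05 (edgeR), where 5.78% of all genes tested were, and 0 were called, with a lowest adjusted p of 0.446. The 9 were singled out by the same libraries, so nothing is read from that count. Of the 10 identifiers after TrE0027W, 9 were tested, and 2, 1, 0 and 0 of them were over 2-fold above the parent mean in Δpph5-2 replicates 1 to 4. Over 2-fold below it were 3, 4, 1 and 1 of these 9, against 6.24%, 5.70%, 5.94% and 2.18% of all genes. The counts of 8, 8, 1 and 1 were the same with DESeq2's size factors and with library size only. No source used here states whether running numbers follow positions on a chromosome, and what sets replicates 1 and 2 apart was not tested.

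**Figure D2:**
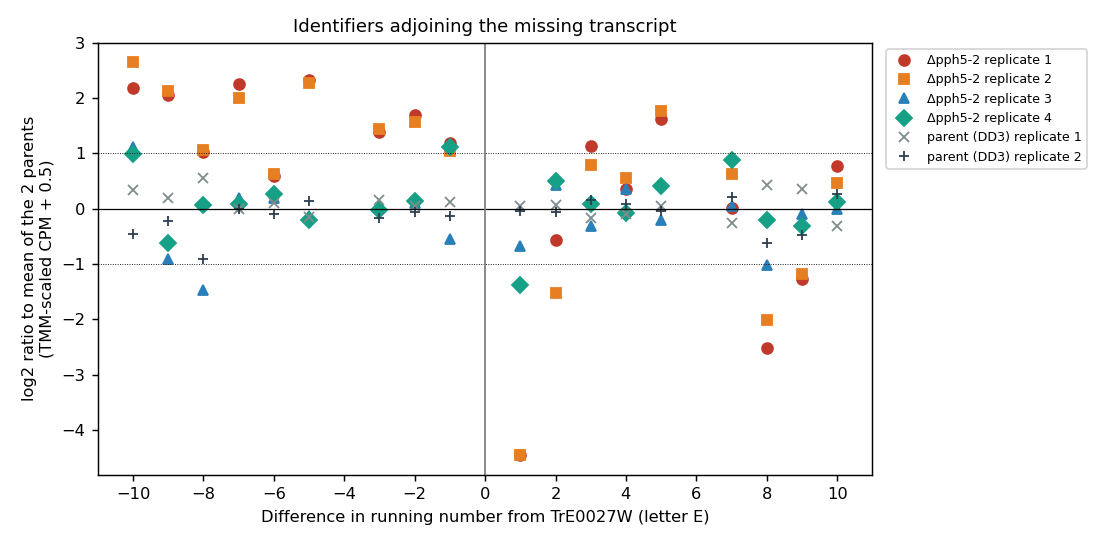
Log2 ratio of each library to the mean of both parents (TMM-scaled CPM plus 0.5) for the tested identifiers within 10 running numbers of TrE0027W, which is left out; dotted lines mark 2-fold. To the left, Δpph5-2 replicates 1 and 2 lie above the upper dotted line for 8 of 9 identifiers and replicates 3 and 4 for 1 each, and at +1 TrE0028C is lowest in replicates 1 and 2, which had 0 counts.

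Apart from TrE0027W (1 gene lower, 0.0112% of the genes tested), 0 genes were called by edgeR. TrG0054C followed with an adjusted p of 0.0708. No gene was called higher (0% of the genes tested), while 515 higher and 255 lower genes had an unadjusted p under 0.05 (5.78% and 2.86%). DESeq2 called 61 higher (0.684%) and 19 lower genes (0.213%), and limma-trend called 1. Of the DESeq2 calls, 77 had no overlap between the groups, against 21.5% of all genes tested. That follows in part from the choice by p. Without Δpph5-2 replicates 3 and 4 together edgeR called 80 genes, 67 higher and 13 lower, and without replicates 1 and 2 together it called 1. Both were run after the data were seen, with replicates 1 and 2 known as the most alike pair. Keeping that pair can raise the number of calls. The lone pair is then assumed to vary like the other groups. Of the libraries outside the comparison, which share the fit, leaving out 1 gave 5 calls without DD1 parent replicate 1, 5 without DD1 parent replicate 2, and 6 without Δpph5 replicate 1.

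A few identifiers illustrate the differences between the groups. They were taken as those with the smallest p among genes without overlap, with parents within 1.5-fold of each other and at least 10 CPM in the higher group. On the lower side TrG0054C (1797 bases) had 74.5, 68.9, 83.0 and 58.3 CPM in Δpph5-2, against 167 and 151 CPM in the parent. The lowest parent library was 1.82-fold above the highest Δpph5-2 library. Its log2 fold change was -1.16 (SE 0.17, 95% interval -1.53 to -0.79, adjusted p = 0.0708 by edgeR and 2.71e-06 by DESeq2). In Δpph5 it was at 67.2 ± 9.02 CPM (SD, n = 3), with 83.3 and 120.0 CPM in the DD1 parents, and was not called there (adjusted p = 0.597 by edgeR).

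On the higher side TrG0399C (1995 bases) had 2123, 2347, 2205 and 2410 CPM in Δpph5-2, against 1378 and 1367 CPM in the parent. All 4 Δpph5-2 libraries stood at least 1.54-fold above both parents. The log2 fold change was 0.73 (SE 0.12, 95% interval 0.46 to 0.99, adjusted p = 0.162 by edgeR and 5.15e-06 by DESeq2). TrB1725W (1530 bases) had 25.4, 27.5, 14.3 and 26.5 CPM in Δpph5-2, against 4.29 and 3.38 CPM in the parent. Replicate 3 was the lowest and still 3.33-fold above the higher parent. Its log2 fold change was 2.61 (SE 0.52, 95% interval 1.48 to 3.74, adjusted p = 0.279 by edgeR and 8.64e-05 by DESeq2). The DD1 parents had 119 and 39 counts, and in CPM the first of them lay above Δpph5-2 replicate 3.

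TrF1049W (1083 bases) was the single call with only the 6 libraries in the fit (adjusted p = 0.0378 by edgeR) and is named after its values were seen. It had 131, 124, 205 and 152 CPM in Δpph5-2, against 1026 and 1060 CPM in the parent. The lowest parent library was 5.01-fold above the highest Δpph5-2 library. With all 15 libraries the log2 fold change was -2.77 (SE 0.52, adjusted p = 0.279 by edgeR and 1.99e-04 by DESeq2). The DD1 parents were at 1470 and 266 CPM, so the DD3 parents lay close together and the DD1 parents far apart. Each of these 4 genes passed the threshold with the position on the scale of parent differences as a covariate, an alternative added after the data were seen: the adjusted p by edgeR was 0.0143 for TrG0054C and TrF1049W, 0.0249 for TrG0399C and 0.0217 for TrB1725W. With that covariate 34 genes were called, 11 higher and 23 lower. Its scale was computed from the same counts, with the DD1 parents that define it left out of the fit. Leaving out DD1 parent replicate 1 alone, with no covariate, gave an adjusted p by edgeR of 0.0158 for TrG0054C and TrF1049W. It was 0.0364 for TrB1725W and 0.0617 for TrG0399C. Covariate and omission were not separated, so the lower p-values and the 34 calls cannot be credited to the covariate alone.

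**Figure D3:**
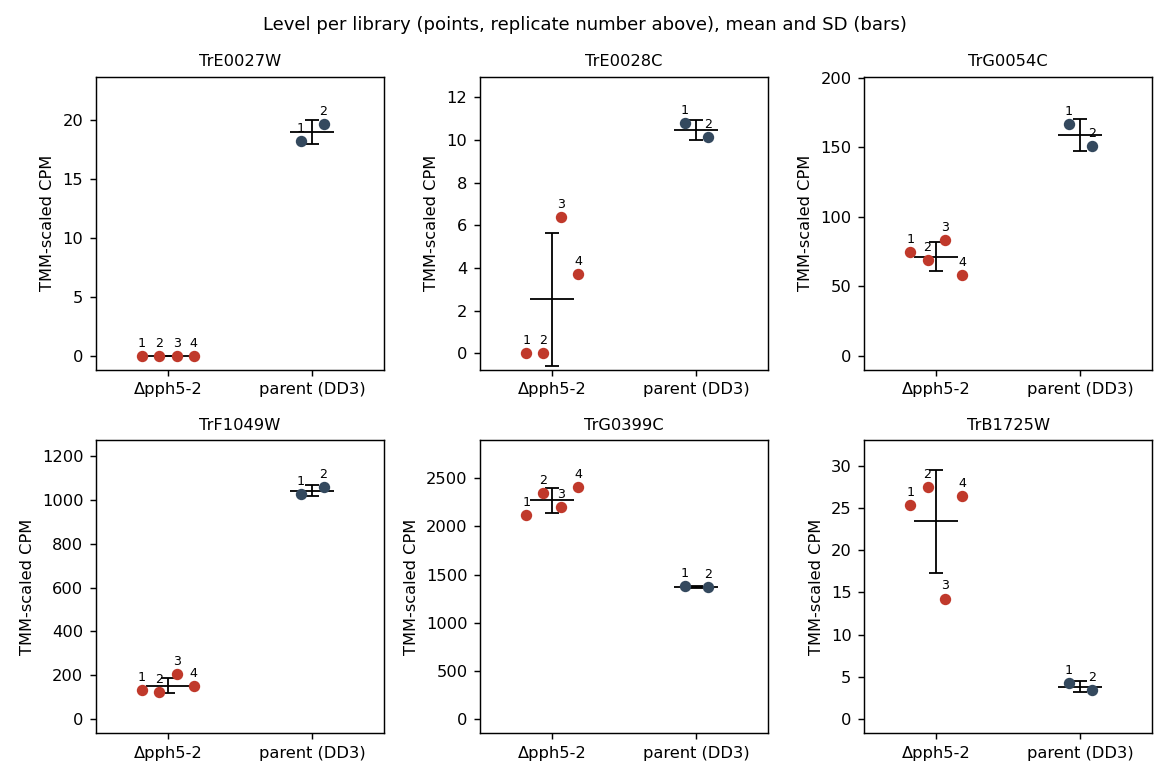
TMM-scaled CPM of 6 transcripts in each library (points with replicate number, Δpph5-2 left and parent right), with mean and SD as bars (n = 4 and n = 2); vertical scales differ between panels. TrE0027W is at 0 in all 4 Δpph5-2 libraries and TrE0028C in replicates 1 and 2, while for TrG0054C, TrF1049W, TrG0399C and TrB1725W all 4 lie on 1 side of both parents.

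In ranks alone, the 4 Δpph5-2 libraries lay above both parents in 1123 genes (12.6% of the genes tested) and below both in 790 genes (8.86%). With library size only as scaling the split was 1283 above and 551 below, and with DESeq2's size factors 1046 above and 870 below. With interchangeable libraries, a share of about 0.133 of genes would on average lie above or below, the smallest two-sided p of the permutation test. Genes are not independent and share the common direction described above. A single comparison can therefore lie far from that share, and no excess is read from it. Among genes with at least 10 CPM in the higher group, 827 lay above and 647 below. Of these, 361 above and 208 below had a gap over 1.1-fold between the nearest libraries of the groups, 66 and 36 a gap over 1.5-fold, and 23 and 11 a gap over 2-fold. Most separations were thus narrow. With parents within 1.5-fold of each other (6785 genes), 14.1% lay above and 10.3% below, and with parents over 2-fold apart (933 genes) 24 genes lay above and 14 below. In 192 of those 933 genes (20.6%) all 4 Δpph5-2 libraries lay between the parents, against 7.47% of all genes tested, and a wider distance between the parents leaves more room for that. Against the DD1 and DD3 parents together, 458 genes lay above and 242 below all 4 parent libraries.

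The size of change that each gene can have had was read from its 95% confidence interval, not adjusted for the number of genes. From the estimate to either end the interval spanned a median of 0.52 on the log2 scale, a factor of 1.43. A 2-fold change in either direction lay outside the interval in 5522 genes (62.0% of the genes tested), a 1.5-fold change in 3421 (38.4%) and a 4-fold change in 7528 (84.5%). Taken singly, a 2-fold rise lay outside in 75.2% of genes and a 2-fold fall in 77.4%. The interval of each remaining gene held a 2-fold change or lay beyond it, and among them were TrG0054C, TrB1725W and TrF1049W, whose intervals left out 0. Leaving out 1 library of either group gave 50% to 60.9% for a 2-fold change in either direction.

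These limits depended on the level and on the parents. A 2-fold change in either direction lay outside in 81.0% of the 2226 genes over 100 CPM, in 74.9% of the 4370 genes at 10 to 100 CPM, in 24.2% of the 1811 genes at 1 to 10 CPM and in 0.990% of the 505 genes under 1 CPM. The median standard error of the log2 fold change was 0.15 in the first of these classes and 0.98 in the last. In the last class, a gene without counts in the 6 libraries gets an interval of no width. It is then counted as leaving out a change, though it holds no data on one. Where the parents were over 2-fold apart, a 2-fold change lay outside in 0.536% of genes, and where they were within 2-fold in 69.1%. The 933 genes with divergent parents had a median standard error of 0.81, against 0.21 for the others. For TrE1020W the interval ran from -0.29 to 0.11, and for TrG1101W from -0.81 to 0.78, so that a 2-fold change lay outside for both transcripts missing from the other deletions.

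**Figure D4:**
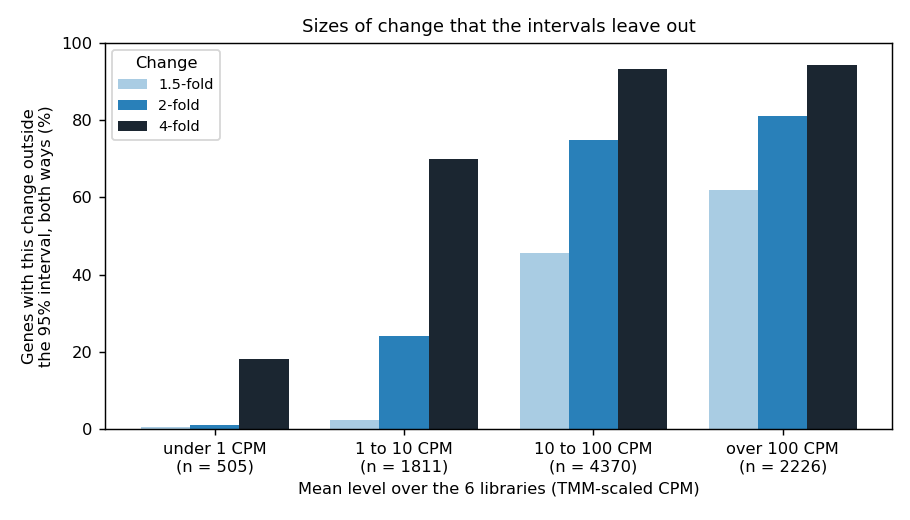
Share of genes whose 95% interval leaves out a 1.5-, 2- or 4-fold change in either direction, by mean level over the 6 libraries in TMM-scaled CPM, with the number of genes under each class. The 2-fold bars stand at 0.990%, 24.2%, 74.9% and 81.0% from the lowest to the highest level.

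The weaker differences, genes with an unadjusted p under 0.05, were more often higher than lower. With no difference, a share of 0.05 of genes is expected there on average, spread evenly over both directions. Genes are not independent, so a single comparison can lie away from it. Here 5.78% of the genes tested were higher and 2.86% lower, so the lower share lay near the expected one. The 515 higher genes had a median log2 fold change of 0.85 (quartiles 0.48 and 1.51), and 215 of them were over 2-fold. The 255 lower genes had a median of -0.61 (quartiles -1.16 and -0.36), and 76 were over 2-fold. The groups did not overlap in 456 higher (88.5%) and 235 lower genes (92.2%), against 21.5% of all genes tested, which follows in part from the choice by p. The fold change exceeded the fold difference between the parents in 502 higher and 234 lower genes, against 3747 of all 8912 genes, which also follows in part from that choice. The p stayed under 0.05 with the same sign without each of the 6 libraries in turn in 83 higher and 35 lower genes. Both directions together numbered 770 genes. Without parent replicate 1 it was 507 (273 higher and 234 lower), and without parent replicate 2 it was 455 (271 higher and 184 lower). Without Δpph5-2 replicates 1 and 2 together it was 370, and without replicates 3 and 4 together 1395. These pairs were chosen after the data were seen, and replicates 1 and 2 were the most alike. The position covariate, in a fit without the DD1 parents, gave a split of 531 higher and 559 lower. With library size only as scaling it was 500 higher and 183 lower, and with DESeq2's size factors 481 and 304. Median levels were 23.9 CPM for the higher genes and 39.0 CPM for the lower, against 34.7 CPM for all genes tested, and median lengths were 1398 and 1137 bases, against 1251 for all.

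The fold change leaned with the difference between the parents. Genes over 2-fold higher in parent replicate 1 had a median log2 fold change of -0.63, and 23.7% of them had a value above 0. For genes over 2-fold higher in parent replicate 2 the median was 0.30, and 66.2% were above 0. Over all 8912 genes the fold change and the parent difference correlated at r = -0.343 (rho -0.187), with the parent libraries common to both measures. Of the weaker differences, 24 higher (4.66%) and 22 lower genes (8.63%) had parents over 2-fold apart, against 10.5% of all genes.

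**Figure D5:**
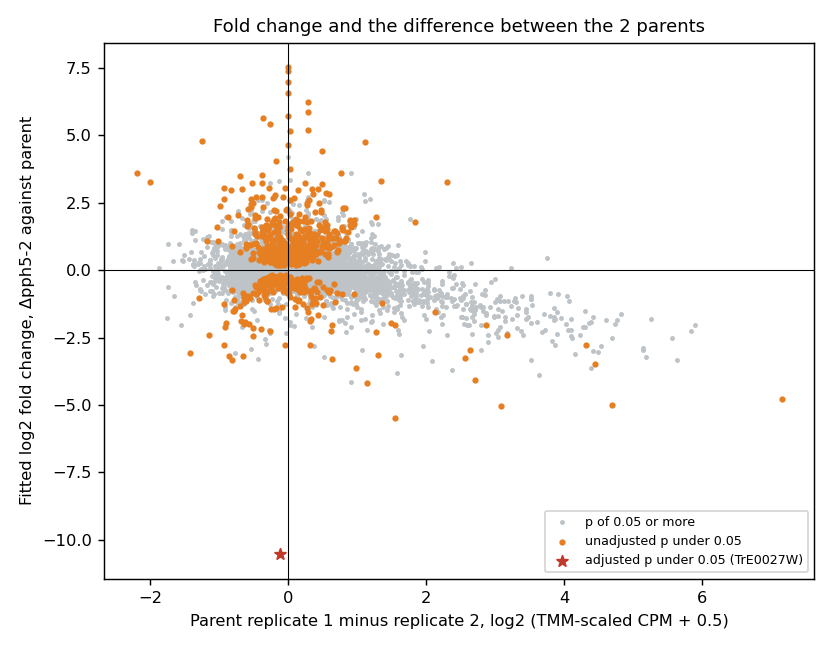
Fitted log2 fold change of Δpph5-2 against the parent (vertical) and log2 difference of parent replicate 1 minus replicate 2 (horizontal, TMM-scaled CPM plus 0.5), 1 point per gene. Genes far to the right, high in parent replicate 1, mostly lie below 0, the genes with an unadjusted p under 0.05 gather near a parent difference of 0, and TrE0027W is the lowest point.

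The same genes were then read in the other deletions, each against the DD1 parents, which are not part of this comparison. Of the 515 higher genes, 406 (78.8%) had a log2 fold change above 0 in Δpph5, against 52.0% of all genes tested, with a median of 0.22, against 0.01 for all. Of the 255 lower genes, 59 (23.1%) were above 0, and the median was -0.21. At an unadjusted p under 0.05 in Δpph5 were 83 of the higher genes upward and 3 downward, and 1 of the lower genes upward and 58 downward, with 263 and 310 among all genes. The test of the difference between the Δpph5-2 and Δpph5 responses called 2 genes (0.0224% of the genes tested), TrE0027W and TrE1020W, and the median standard error of that difference was 0.35 on the log2 scale. Without Δpph5-2 replicates 3 and 4 together it called 24. That split was chosen after the data were seen and keeps the most alike pair, so nothing is read from this count. TrE0027W and TrE1020W are the candidates for the deleted genes and had been picked by their counts, so their calls followed from that choice.

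In Δpp2A, 708 genes were called higher (7.94%) and 957 lower (10.7%) than in the DD1 parents. Of the 515 higher genes of Δpph5-2, 121 were also called higher in Δpp2A, which is 23.5% of the 515 and 17.1% of the 708, and 37 (7.18%) were called lower in Δpp2A. Of the 255 lower genes, 81 were called lower in Δpp2A, which is 31.8% of the 255 and 8.46% of the 957, and 14 (5.49%) were called higher. In Δpph5-2 the genes called higher in Δpp2A had a median log2 fold change of 0.24, those called lower one of -0.16, and all genes tested one of 0.01. Of both lists 0 were called in Δpph5-2 by edgeR. Same-numbered parents of DD1 and DD3 resembled each other, so that the parents behind these comparisons are not fully independent. Whether it enters these shares was not tested.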

How the data were processed

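The authors deposited unnormalised read counts per gene with gene lengths, 1 column per library. HISAT2 2.2.1 is named, without its role, per the submitters' processing notes. Libraries were prepared with a stranded kit after depletion of ribosomal RNA, per the labels' protocols. Build, annotation and strand setting are not stated in the sources used here. Reads of overlapping or near-identical genes may therefore have gone to either. Of 10879 identifiers, 0 matched the RefSeq table of 9116 genes. Of the deposited lengths 94.7% are multiples of 3.

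Counts were analysed with edgeR 4.0.16 in R 4.3.3: filterByExpr (left-out genes held at most 0.0296% of a library's counts), TMM, and a robust quasi-likelihood fit with 1 mean per group over 15 libraries, called at an adjusted p under 0.05. Intervals are the estimate ± the t quantile times its SE. DESeq2 1.42.0 and limma 3.58.1 (limma-trend) were alternatives. Ratios to the parent mean used CPM plus 0.5, and distances between libraries log2 CPM with 2 as prior count. The fit was tested on simulated counts, drawn independently for each library. They lacked the common direction of differences between libraries described above, so calls and intervals under such differences were not checked. At most 2 identifiers per direction were named, by smallest p among genes without overlap, with parents within 1.5-fold and at least 10 CPM, with TrE0027W as 1 of the lower, and others where said. Lists fixed by gene symbol could not be used. Members and lists were chosen with earlier results of these data known.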

Additional observations from a re-analysis of the deposited data

Results flagged for a closer look

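Among the values described, 9 sets of 4 Δpph5-2 libraries were examined for a library far from the other 3, and 2 sets held one, where chance gives about 1 in 20. For TrB1725W it was replicate 3, at 14.3 CPM, with the other 3 between 25.4 and 27.5 CPM. On the scale of parent differences it was replicate 4, at 0.501, with the others between 0.099 and 0.157. A difference between the Δpph5-2 and Δpph5 responses was called by edgeR for the transcripts missing from these strains, with an adjusted p of 1.04e-05 for TrE0027W and of 7.84e-10 for TrE1020W. Both transcripts had been picked as absent from 1 of these strains, so these calls followed from that choice.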

How the results depend on the processing

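The fall of TrE0027W kept its direction in all alternatives and was called in all but the fit with only the 6 libraries (adjusted p = 0.0873 by edgeR). Without 1 library at a time its adjusted p ran from 3.74e-07 to 1.70e-05. The number of calls was 2 with a mean of at least 10 CPM as filter (TrE0027W and TrG0054C, adjusted p = 0.0499 by edgeR). It was 3 with DD1 and DD3 parents merged, 80 by DESeq2, and 80 without Δpph5-2 replicates 3 and 4 together. With the position covariate and without the DD1 parents it was 34, and without 1 library 1 to 6. Genes with an unadjusted p under 0.05 numbered 1278 with the parents as 1 group, 370 without Δpph5-2 replicates 1 and 2, 1395 without replicates 3 and 4, and 455 to 1113 without 1 library. Genes without overlap numbered 1913 in all, 700 against all 4 parents, 3149 without Δpph5-2 replicates 1 and 2, 5074 without replicates 3 and 4, and 2113 to 5021 without 1 library, where fewer libraries separate more easily. Without 1 library, the share of genes with a 2-fold change outside the interval was 50% to 65.1%. The difference from Δpph5 gave 24 calls without Δpph5-2 replicates 3 and 4, and 2 without any 1 library. The pairs of Δpph5-2 replicates left out here were chosen after the data were seen, and replicates 1 and 2 were the most alike. Parents over 2-fold apart numbered 475 with the filter of 10 CPM, which tests fewer genes. The causes of the other shifts were not tested. With the replicate number as a block, TrE0027W remained the single call (adjusted p = 0.000598 by edgeR). Only numbers 1 and 2 occur in both groups. For each Δpph5-2 library, the deviation from its group mean was correlated across genes with parent replicate 1 minus 2. The values were -0.22, -0.242, -0.258 and 0.551 (replicates 1 to 4). Deviations from a group mean balance out, so the high value of replicate 4 lowers the others. Whether same-numbered libraries are paired therefore cannot be read from these values, and the sources used here do not state it. The adjusted p of TrG0054C by edgeR ran from 0.0158 to 0.864 without 1 library. Library size only moved the median of all genes by 0.07 (log2). Depth limits the genes under 10 CPM most.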

Other observations

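The stretch of high counts in Δpph5-2 replicates 1 and 2 had no counterpart at the scale of a whole letter: over the 7 letters, the median log2 ratio of a Δpph5-2 library to the parent mean lay between -0.04 and 0.02. Of all 22 tested identifiers of the letter E below TrE0027W, 12, 11, 1 and 2 were over 2-fold above the parent mean in Δpph5-2 replicates 1 to 4, and 4, 4, 9 and 6 were over 2-fold below it. Of all genes, 6.08%, 5.24%, 1.41% and 2.69% were that far above, and 6.24%, 5.70%, 5.94% and 2.18% that far below. The 22 include the 9 described before, of which 8, 8, 1 and 1 were above.

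Of the 100 genes highest in the DD1 parents, 2 were higher and 3 lower in Δpph5-2 at an unadjusted p under 0.05, against 5.78% higher and 2.86% lower of all genes tested, and 0 were called by edgeR. Their median log2 fold change was -0.17, against 0.01 for all genes tested, and a 2-fold change in either direction lay outside the interval in 48% of them, against 62.0% of all.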
